A study of Mus musculus with 4 samples.

Results

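Foxo1 binding in mouse regulatory T cells was examined at clusters of 3 or more neighbouring peaks from chromatin immunoprecipitation with a Foxo1 antibody followed by sequencing (ChIP-seq). Antibody peaks on the 19 autosomes were sorted by position, and successive peaks were chained when the gap between the end of a peak and the start of the next was 5000 bases or less. A chain of 3 or more peaks is called a cluster here. The rule gave 413 clusters that hold 1397 peaks, which is 8.58% of the 16282 autosomal antibody peaks and 8.48% of all 16473. The other autosomal peaks were 3138 peaks in 1569 pairs (chains of 2 peaks) and 11747 single peaks. The clusters were thus chosen by the positions of the antibody peaks, and their peak number, gaps and spans are given as a description.

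Foxo1 is a forkhead transcription factor that binds DNA as a single protein. It is kept in the cytoplasm when phosphorylated by Akt and returns to the nucleus when signalling through PI3K is low. In regulatory T cells, the Foxp3-expressing cells that restrain immune responses, Foxo1 is needed for normal suppressive function. Neighbouring binding sites of a factor often lie within an enhancer, a promoter or a stretch of several such elements.

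The antibody library came from regulatory T cells (nTreg in the labels) of wild-type B6 mice. The second library was precipitated with streptavidin from nTreg cells of Foxo1tagBirA mice, in which the endogenous Foxo1 is biotinylated by the ligase BirA, and serves here as a separate readout of the same protein. An input library accompanied each of them, which makes 4 libraries in all, and no values of the inputs were analysed here. The labels give neither age nor treatment, nor whether animals were pooled. No marker of the cell type can be checked in peak lists. Each group has 1 library, so replicate error cannot be measured, no test was made, and read depth is unknown. The 95% exact (Clopper-Pearson) intervals below cover counting error over peaks only. Peaks of 1 cluster are not independent of each other, so these intervals are too narrow by an unknown amount. Genes are not named, as the annotation at hand is of another genome build than the peaks, which are in mm9.

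Most clusters were small. There were 300 clusters of 3 peaks, or 72.6%, 80 of 4 peaks, 25 of 5 and 6 of 6. The remaining clusters held 7 and 9 peaks and lay on chromosomes 8 and 11. From its first to its last base a cluster spanned 644 to 12742 bases, with a median of 3210 (quartiles 1638 and 5330). The median span was 2619 bases for clusters of 3 peaks, 3696 for 4 peaks and 7936 for 5 peaks. Only 24 clusters were 1 kb or shorter and 13 were longer than 10 kb. Together the clusters spanned 1566 kb, of which the peaks themselves covered 397 kb.

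**Figure D1:**
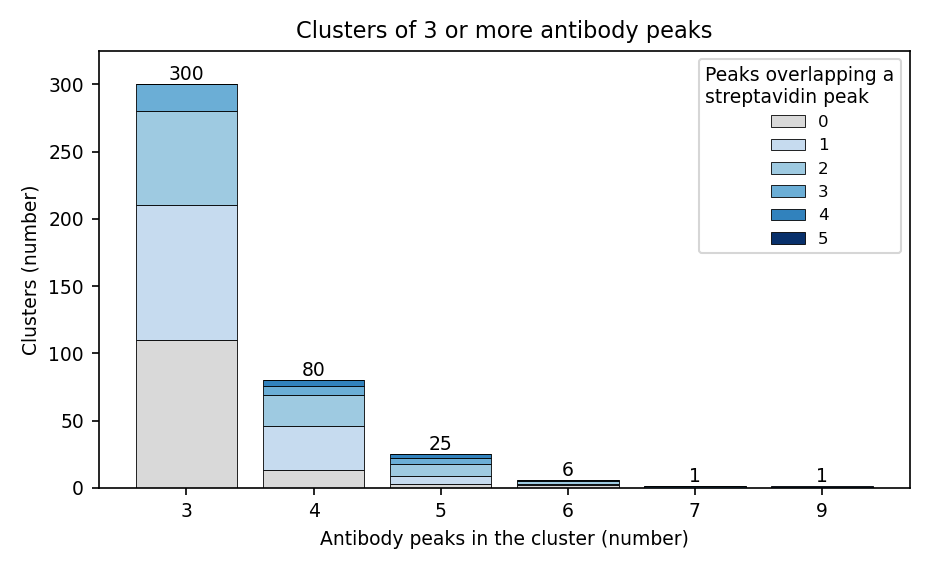
Number of clusters (vertical axis) by the number of antibody peaks in the cluster (horizontal axis). Each bar is divided by how many of its peaks overlapped a streptavidin peak, and the total stands above it. Of the 300 clusters of 3 peaks, 110 had no such peak and 20 had 3.

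Gaps within a cluster are limited by the rule, so the closeness of its peaks is built in. The 984 gaps between successive cluster peaks ranged from 1 to 4996 bases, with a median of 504.5 bases (quartiles 149 and 1931). The gaps of pairs, which have the same limit, had a median of 511 bases (quartiles 130 and 2197). A total of 350 gaps, or 35.6%, were 250 bases or shorter, which is less than the median width of a cluster peak, 255 bases. A further 140 gaps were between 251 and 500 bases, and 68 were over 4000 bases. Whether peaks with a short gap are separate sites or parts of a wider enriched region was not tested. When peaks with a gap of 500 bases or less were joined before chaining, 157 clusters with 507 peaks were left.

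At the edge of the rule, the longest gap inside a chain was 4996 bases and the shortest gap that ended a chain was 5003 bases. In 32 clusters the largest gap was over 4500 bases. Their 115 peaks had a median score of 185, and 36 of them (31.3%, 95% exact interval 23.0 to 40.6) overlapped a streptavidin peak. In 20 pairs a further peak lay 5000 to 5500 bases away, just outside the rule. Their 40 peaks had a median score of 181, and 17 (42.5%, 27.0 to 59.1) overlapped a streptavidin peak. The intervals of these shares overlap, and the share was 21.8% over all autosomal antibody peaks and 30.3% over peaks in pairs.

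The score of a peak is the authors' own value, which no header defines, and serves here to order and name peaks of the same list. Cluster peaks had a median score of 178 (quartiles 122 and 318), peaks in pairs 172 (122 and 277) and single peaks 166 (127 and 234). The lower quartiles of cluster peaks and pairs were below that of single peaks, and their upper quartiles were above it. The strongest peak of each cluster had a median score of 358 (quartiles 230 and 664) and the weakest 113 (97.2 and 141). In pairs, which have fewer peaks to draw a highest and a lowest from, these medians were 245 and 131. The lowest score in the autosomal list was 86.0, which bounds the weakest peaks from below. The strongest peak stood first in 100, second in 96 and last in 104 of the clusters of 3 peaks, counted along the chromosome. The highest score among cluster peaks was 3100 and was shared by 7 of them. The same value was held by 7 peaks in pairs and 17 single peaks, and 4 peaks in pairs and 5 single peaks scored above it. The order among the peaks tied at 3100 is not resolved.

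The streptavidin list, with 57748 peaks against 16473 in the antibody list, was not used to choose the clusters. Of the 1397 cluster peaks, 482 shared 1 or more bases with a streptavidin peak, or 34.5% (95% exact interval 32.0 to 37.1), which is what overlap means throughout. Over all autosomal antibody peaks this share was 21.8%. It was 30.3% (28.7 to 31.9) among peaks in pairs and 18.1% (17.4 to 18.8) among single peaks. Cluster peaks thus overlapped more often than single peaks by more than the counting intervals, while the intervals of cluster peaks and pairs only just failed to meet. Among clusters of 3, 4 and 5 peaks the share was 33.3%, 36.2% and 38.4%, with overlapping intervals. It was 34.6% (22.0 to 49.1) for the 52 peaks in clusters of 6 or more.

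Antibody score moves with overlap, so the groups were also set side by side within quintiles of the score over all autosomal antibody peaks. In the lowest quintile (scores 86.0 to 118) 20.6% (16.2 to 25.6) of cluster peaks, 18.3% (15.4 to 21.4) of peaks in pairs and 11.0% (9.78 to 12.4) of single peaks overlapped a streptavidin peak. In the middle quintile the shares were 26.8%, 23.1% and 11.1%. In the highest quintile (scores from 279) they were 61.6% (56.6 to 66.4), 55.2% (51.6 to 58.7) and 45.0% (42.9 to 47.2). Cluster peaks were above single peaks in each of the 5 quintiles with intervals that did not meet, while the intervals of cluster peaks and pairs overlapped in each. With the quintiles weighted as among cluster peaks, the share was 21.7% for single peaks and 31.6% for pairs, against the 34.5% of cluster peaks. Peak width was not matched, and a wider peak has more bases to overlap. Median widths were 255 bases for cluster peaks, 244.5 for peaks in pairs and 228 for single peaks.

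**Figure D2:**
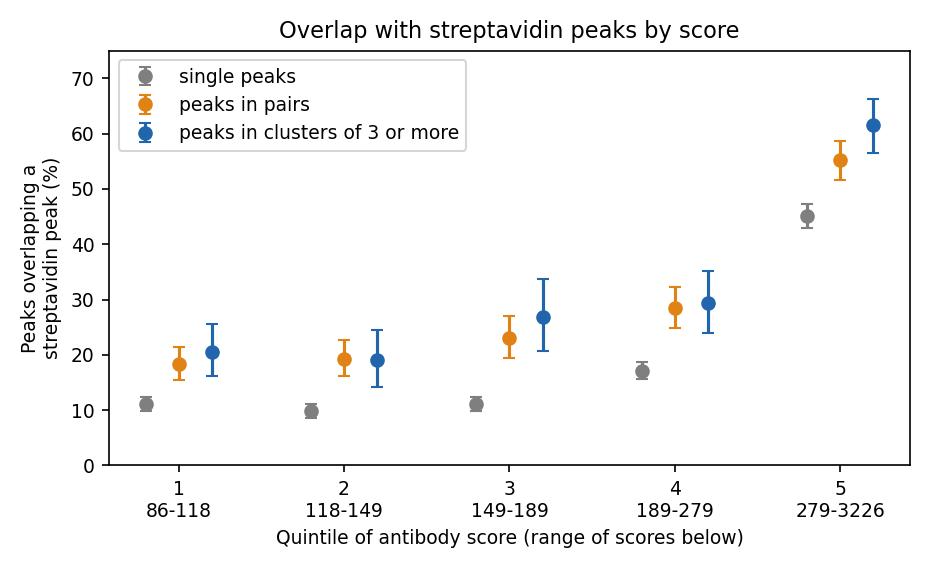
Share of antibody peaks that overlapped a streptavidin peak (vertical axis, percent) by quintile of antibody score (horizontal axis) for single peaks, peaks in pairs and peaks in clusters. Points are shares and bars are 95% exact binomial intervals over peaks. In the highest quintile the shares were 45.0%, 55.2% and 61.6%.

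Counted by cluster, 285 of the 413 (69.0%, 64.3 to 73.4) had at least 1 peak that overlapped a streptavidin peak. Over all 13729 runs of neighbouring antibody peaks, single peaks included, this was 23.0%, and over pairs it was 48.2%. A cluster has more peaks than a pair and thus more chances to hold an overlapping peak, so these values are not comparable as rates. The share was 63.3% for clusters of 3 peaks, 83.8% for 4 and 88.0% for 5. A total of 145 clusters had 2 or more overlapping peaks, and in 29 of these the overlapping peaks all had the same streptavidin score. In 24 clusters, or 5.81%, every peak overlapped a streptavidin peak, 20 of them with 3 peaks and 4 with 4 peaks. None of the 25 clusters of 5 peaks and none of the 8 larger ones was complete in this sense. Both peaks overlapped in 12.4% of pairs, and 18.1% of single peaks overlapped. A cluster needs more peaks to overlap to be complete, so these values are not comparable as rates either.

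Some of the overlaps come from a single streptavidin peak that covers several antibody peaks. The 482 overlapping cluster peaks met 449 streptavidin peaks, and 50 of these covered 2 or more cluster peaks. In this way 101 cluster peaks in 48 clusters shared their streptavidin peak with another antibody peak, and 381 did not. Over all autosomes, 128 of the 3536 streptavidin peaks that overlap an antibody peak covered 2 or more antibody peaks. A streptavidin peak can thus count more than once in the shares of cluster peaks and pairs. The part of this in their difference from single peaks was not tested.

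Overlap was most frequent at the strongest peak of a cluster. Of the 413 strongest peaks 222 overlapped a streptavidin peak, or 53.8% (48.8 to 58.6), against 260 of the 984 other cluster peaks (26.4%, 23.7 to 29.3) and 83 of the 413 weakest (20.1%, 16.3 to 24.3). The strongest peaks also have higher scores by definition, and the part of the score in this difference was not tested. In pairs the stronger peak overlapped in 37.5% and the weaker in 23.0%. Of the 140 clusters with a single overlapping peak, that peak was the strongest in 88. Inner peaks overlapped in 37.5% (33.5 to 41.6) and the 2 end peaks in 32.4% (29.3 to 35.8), with overlapping intervals. Compact clusters of up to 2 kb had 37.2% overlapping peaks, those of 2 to 5 kb 33.5% and those over 5 kb 32.9%, also with overlapping intervals.

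**Figure D3:**
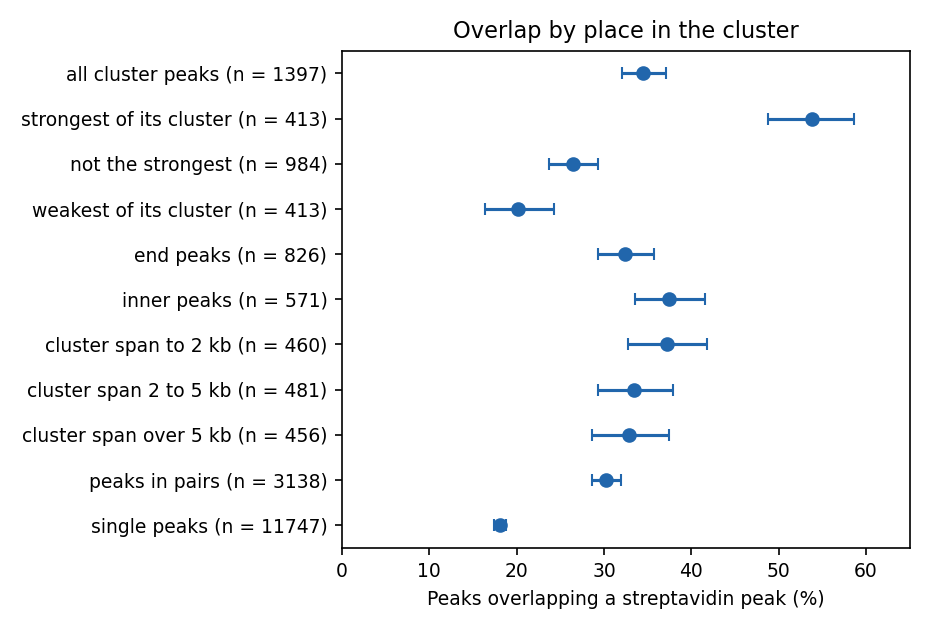
Share of peaks that overlapped a streptavidin peak (horizontal axis, percent) for cluster peaks by rank of score, place and span of the cluster, with pairs and single peaks below. Points are shares, bars are 95% exact binomial intervals and n is the number of peaks. The strongest peaks stood at 53.8% and the weakest at 20.1%.

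The scores of the 2 methods were ranked alike only in part. Across the 482 overlapping cluster peaks, antibody score and the highest overlapping streptavidin score had a Spearman's rho of 0.44, against 0.32 in pairs and 0.35 in single peaks. These points share the same 2 libraries and are not independent replicates. Of the 116 clusters whose overlapping peaks differed in streptavidin score, the strongest antibody peak among them also had the highest streptavidin score in 65 and did not in 51. The overlapping streptavidin peaks had a median score of 115 at cluster peaks, 106 at pairs and 96.7 at single peaks. The centres of the peaks of both methods were a median of 60.2 bases apart at cluster peaks, 64.5 at pairs and 55 at single peaks.

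The overlap of a cluster peak was set beside that of its neighbour, by the gap between them. Among peaks whose neighbour at a gap of up to 500 bases overlapped a streptavidin peak, 55.0% (49.8 to 60.1) did so too, against 27.4% (23.9 to 31.2) where the neighbour did not. At gaps over 500 and up to 2000 bases both shares were 37.5%. At gaps over 2000 bases they were 40.6% (32.2 to 49.5) and 23.0% (18.7 to 27.9). The difference did not fall steadily with distance. Each adjacent pair is read in both directions here, so a peak can count more than once and the intervals are too narrow. The streptavidin peaks that cover several antibody peaks count in the shortest class, where they make neighbours alike by definition. At gaps of up to 500 bases, 102 adjacent pairs had both peaks overlapping, while 50 streptavidin peaks covered 2 or more cluster peaks. Part of the 55.0% is thus built in, and its size was not tested.

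**Figure D4:**
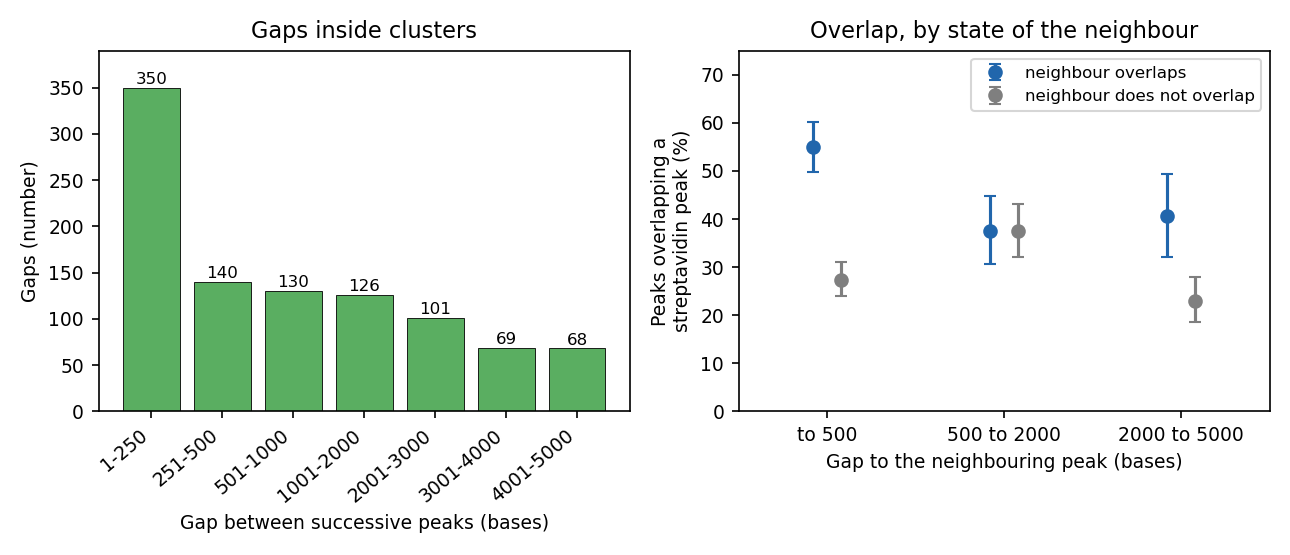
Left, number of gaps between successive cluster peaks by gap length in bases. Right, share of cluster peaks that overlapped a streptavidin peak (percent) by gap to the neighbouring peak and by whether that neighbour overlapped one, with 95% exact binomial intervals. Each adjacent pair is read in both directions, so a peak can count more than once. At gaps of up to 500 bases the shares were 55.0% and 27.4%.

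Streptavidin peaks were also found between the antibody peaks of a cluster. The cluster spans met 517 streptavidin peaks, of which 68 overlapped no antibody peak, in 63 clusters. This is 0.0582 such peaks per kb of gap. It was 0.0449 per kb in the gaps of pairs and 0.0332 per kb in the 2.5 kb on either side of single peaks, which are stretches of another length and shape. Of the 915 cluster peaks without an overlap, 257 (28.1%) had a streptavidin centre within 1 kb, but this counts streptavidin peaks on neighbouring antibody peaks, which the rule places nearby. Counting only streptavidin peaks that overlapped no antibody peak, 65 of the 915 (7.10%) had a centre within 1 kb, against 6.99% in pairs and 6.40% among single peaks. The nearest such centre was a median of 11556 bases from these cluster peaks, 12524 from the corresponding peaks in pairs and 12141 from single peaks. Within 1 kb, streptavidin peaks off the antibody peaks were thus about as frequent at cluster peaks without an overlap as at single ones. Leaving out streptavidin peaks on antibody peaks removes nearby ones in clusters and pairs, but none within 1 kb of these single peaks. With all of them counted, 20.8% of the peaks without an overlap in pairs and 6.40% of single ones had a centre within 1 kb. Neither count compares the groups on equal terms. In 20 clusters streptavidin peaks lay only in the gaps, and 108 clusters met none.

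Streptavidin peaks chained by the same rule gave 1075 clusters of 3 or more peaks, which held 6.04% of the autosomal streptavidin peaks. Of the antibody clusters 70 (16.9%) met a streptavidin cluster, and 70 streptavidin clusters (6.51%) met an antibody cluster. Of the cluster peaks 15.5% (13.6 to 17.5) lay in or touched the span of a streptavidin cluster, against 3.14% of all autosomal antibody peaks, 4.68% in pairs and 1.26% of single peaks. Streptavidin peaks that overlap neighbouring cluster peaks lie near each other through the antibody rule itself. Part of this difference is thus built in, its size was not tested, and the shares are not comparable as rates.

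The deposited list of regions named for both methods met 511 cluster peaks, or 36.6%, against 22.4% of all autosomal antibody peaks. This is more than the 482 that overlapped a streptavidin peak, and 90 of its intervals covered 2 or more cluster peaks. It met 285 clusters, the same number as had a peak that overlapped a streptavidin peak. Among single peaks it met 2122, again the number that overlapped a streptavidin peak. These shares thus largely repeat the overlap given above and are not a further readout. Of the 3387 autosomal intervals of this list 412, or 12.2%, met a cluster peak. Conversely, 12.7% of the autosomal streptavidin peaks that overlap an antibody peak, which are 6.19% of that list, did so at a cluster peak.

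Clusters were present on all 19 autosomes. Chromosome 11 had the most, 38 clusters with 136 peaks, or 11.1% (9.36 to 12.9) of its antibody peaks. Chromosome 19 had the highest share, 12.8% (10.1 to 16.0) in 21 clusters, and chromosome 16 the lowest, 5.32% (3.57 to 7.60) in 8 clusters. Chromosomes 5, 8 and 17 had 10.5%, 10.3% and 10.3%. The share of cluster peaks with a streptavidin overlap ranged from 24.3% on chromosome 15 to 44.4% on chromosome 13, which had 36 cluster peaks. Neighbouring clusters on a chromosome were a median of 2902 kb apart. Only 37 such distances were 100 kb or less, and the shortest was 13910 bases.

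The largest cluster by number held 9 peaks at chromosome 11, 74643375 to 74652326. Their antibody scores were, in order along the chromosome, 166, 186, 149, 201, 545, 116, 134, 117 and 116. The first 3 peaks, the fifth, which was the strongest, and the sixth overlapped streptavidin peaks, with scores of 105, 230, 230, 128 and 57.0. The second and the third peak met the same streptavidin peak. The last 3 peaks overlapped none, although a streptavidin peak of score 101 lay in the gap before the last 2.

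The cluster of 7 peaks at chromosome 8, 73219263 to 73226514, had antibody scores of 333, 105, 500, 314, 286, 90.9 and 113. The 4 peaks after the first overlapped streptavidin peaks, with scores of 60.9, 175, 175 and 57.7, and the third and the fourth shared a streptavidin peak. The first peak, second in antibody score, did not overlap any.

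The 6 clusters of 6 peaks differed widely. At chromosome 10, 18904721 to 18913490, the antibody scores were 1429, 976, 371, 185, 360 and 698, and the first and second peak overlapped streptavidin peaks scoring 428 and 458. At chromosome 7, 25683955 to 25692815, the last 4 peaks, with antibody scores of 105, 360, 87.4 and 366, overlapped streptavidin peaks scoring 136, 131, 106 and 62.9. At chromosome 4, 94716761 to 94720030, all 6 peaks lay within 3270 bases with antibody scores of 105 to 218, and 2 of them, 1 base apart, met the same streptavidin peak of score 67.1. At chromosome 11, 87558447 to 87570392, only the first and strongest peak, with an antibody score of 323, overlapped a streptavidin peak, which scored 187.

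The other 2 clusters of 6 peaks had no overlapping peak. The cluster at chromosome 11, 69222891 to 69233858, had antibody scores of 614, 95.1, 570, 239, 90.0 and 186, and a single streptavidin peak (score 72.4) in its last gap. The cluster at chromosome 4, 63061690 to 63071837, had antibody scores of 236, 109, 321, 161, 126 and 327, and a single streptavidin peak (score 90.7) in its longest gap of 4672 bases.

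**Figure D5:**
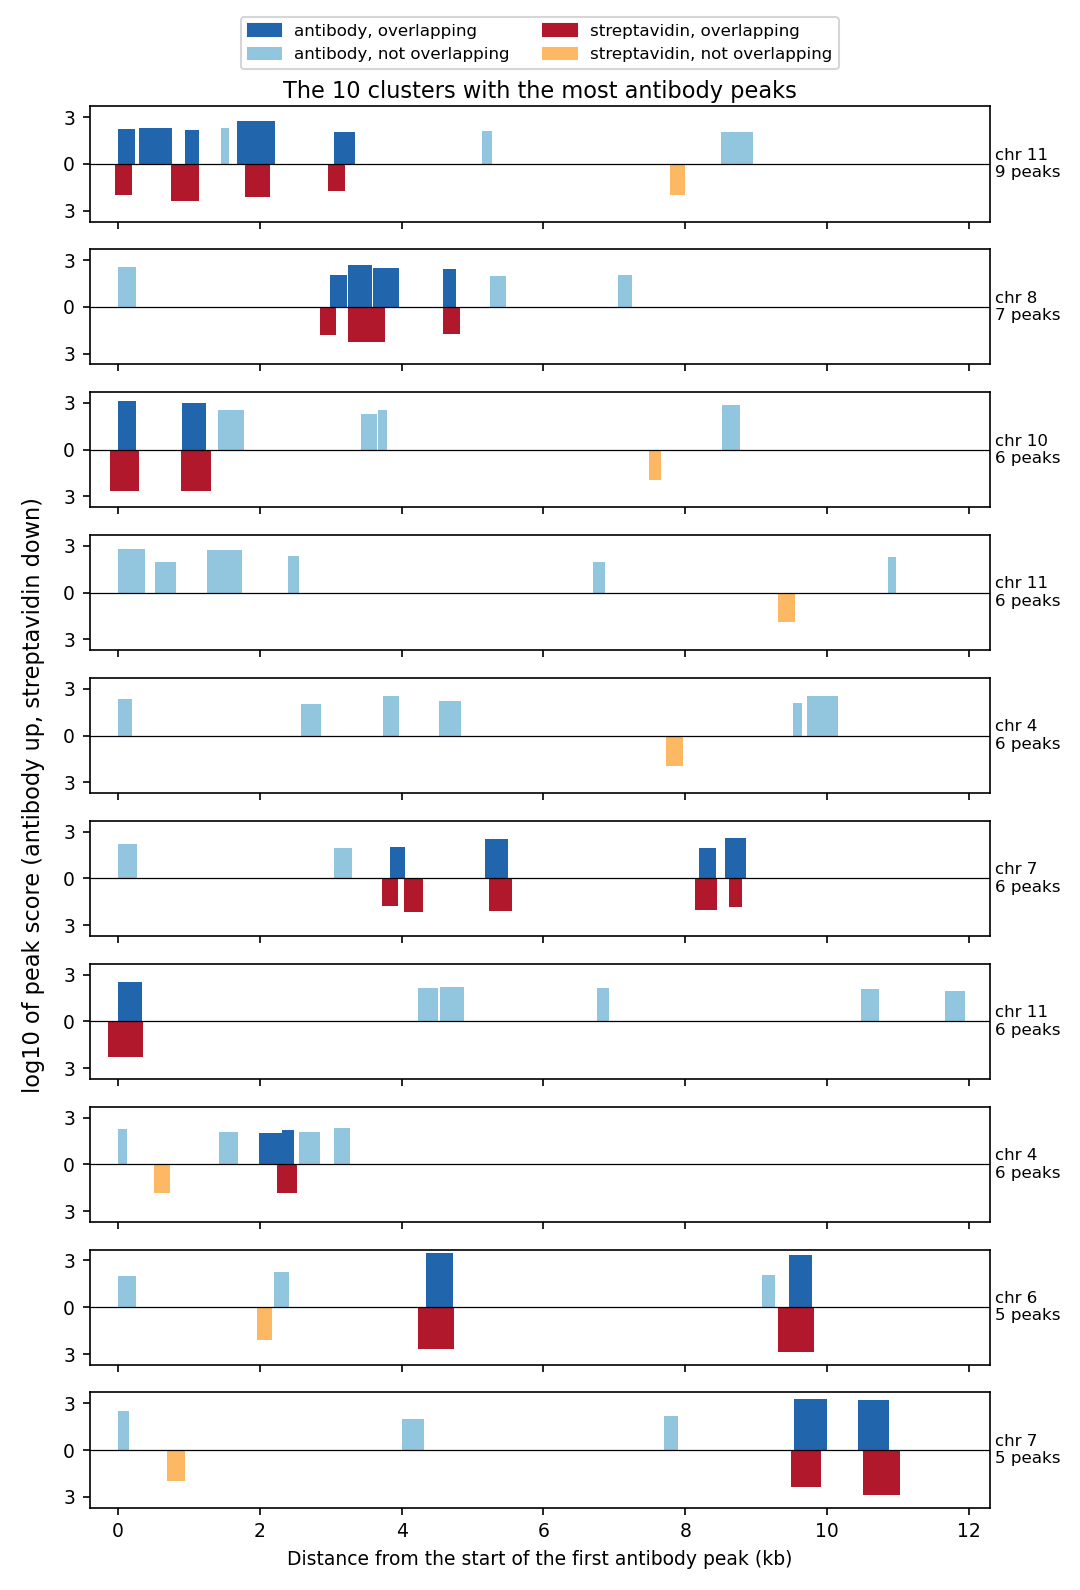
Maps of the 10 clusters with the most antibody peaks, by distance from the start of the first peak (horizontal axis, kb). Bars upward are antibody peaks and bars downward streptavidin peaks, with the log10 of each list's own score as height and dark bars where the peaks of both lists overlap. The top row is the cluster of 9 peaks, of which 5 overlapped streptavidin peaks, and the fourth and the fifth rows are the clusters of 6 peaks without an overlap.

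The highest summed antibody score, 5323, belonged to a cluster of 5 peaks at chromosome 6, 48673474 to 48683252. It consisted of 2 strong peaks with scores of 2831 and 2091, which overlapped streptavidin peaks scoring 496 and 746, and of 3 weak ones with scores of 95.1, 194 and 112, which overlapped none. Each strong peak was preceded along the chromosome by a weak one. A similar mixture was seen at chromosome 7, 29156540 to 29167411, where the last 2 of 5 peaks scored 2000 and 1700 and overlapped streptavidin peaks scoring 217 and 788, and the other 3 scored 301, 102 and 166 and overlapped none.

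At chromosome 4, 33332960 to 33335759, a cluster of 3 had antibody scores of 126, 3100 and 1910, and its 2 strong peaks, 112 bases apart, met a single streptavidin peak of score 2642, the highest at any cluster peak. At chromosome 11, 54769254 to 54776685, the first and the third of 4 peaks, with antibody scores of 3100 and 981, overlapped streptavidin peaks scoring 246 and 112. At chromosome 11, 68908248 to 68913758, the first and the third of 4 peaks scored 3100 and 250 and overlapped streptavidin peaks scoring 532 and 57.0, while peaks of 547 and 513 did not overlap any.

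Of the clusters in which every peak overlapped a streptavidin peak, 4 had 4 peaks. Those on chromosome 8 (26707472 to 26712389) and chromosome 13 (42146747 to 42148357) had highest antibody scores of 696 and 589. Those on chromosome 12 (77468363 to 77472273) and chromosome 5 (100467386 to 100469246) had 664 and 254. On chromosome 8 the 4 antibody peaks met only 2 streptavidin peaks, with scores of 282 and 219, 1 at each end, and most of the fourth peak lay outside the second of them. On chromosome 12 the cluster met 6 streptavidin peaks, 2 of them in its gaps. On chromosome 5 each of the 4 antibody peaks had a streptavidin peak of its own, scoring 53.1, 89.2, 59.9 and 143.

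The strongest complete cluster of 3 was at chromosome 13, 81022480 to 81025693. Its antibody scores of 443, 1283 and 3100 were matched in order by streptavidin scores of 57.2, 166 and 1355. The cluster at chromosome 6, 31166352 to 31171839, ran the other way along the chromosome, with antibody scores of 3100, 582 and 196 and streptavidin scores of 1029, 169 and 64.4. At chromosome 14, 103497903 to 103499098, a single streptavidin peak of score 727 met all 3 antibody peaks, which scored 101, 1984 and 1765. Its centre was 622 bases from that of the first, which it only touched, and 302.5 and 296.5 bases from the others. Further complete clusters of 3 had highest antibody scores of 2109 on chromosome 8 (86721269 to 86727641), 2041 on chromosome 16 (4879092 to 4880907) and 954 on chromosome 19 (53387203 to 53388501).

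A total of 128 clusters had no overlapping peak. The strongest of them was at chromosome 11, 77795197 to 77798446, with antibody scores of 117, 2122 and 373, and the nearest streptavidin centre to its strongest peak was 35990 bases away. The cluster at chromosome 7, 109118538 to 109119633, had antibody scores of 140, 468 and 1177 within 1096 bases, and the nearest streptavidin centre to its strongest peak was 27743 bases away. At chromosome 10, 80630444 to 80639883, 5 peaks had antibody scores of 436, 398, 525, 176 and 122, and the nearest streptavidin centres were 29958 to 39032 bases away. The median over all cluster peaks without an overlap was 2626 bases, streptavidin peaks on neighbouring antibody peaks included. Clusters without an overlapping peak have no such neighbour inside the cluster, so this median is not a like comparison. Counting only streptavidin peaks that overlapped no antibody peak, the median was 11556 bases.

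The widest cluster was at chromosome 9, 107444370 to 107457111, where 4 peaks with antibody scores of 98.9, 330, 211 and 88.4 spanned 12742 bases and overlapped no streptavidin peak. The cluster at chromosome 9, 57488129 to 57500861, spanned 12733 bases. Its first 3 peaks, with antibody scores of 144, 408 and 98.0, overlapped streptavidin peaks scoring 138, 98.2 and 122. At chromosome 9, 32303357 to 32315394, 2 of 5 peaks overlapped, with antibody scores of 558 and 310. At chromosome 17, 23802682 to 23814569, only the strongest of 4 peaks did, with an antibody score of 321 and a streptavidin score of 72.9.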

How the data were processed

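The data were 3 deposited lists of genomic intervals from nTreg cells, in the mouse build mm9 per the submitters' processing notes, which name CASAVA 1.4, Bowtie 0.12.7 and MACS 1.4 without roles or settings. In the antibody and streptavidin lists the authors give each peak's position and a score, and both lists carry a false discovery rate of 0.01 in their names. The score is not defined in any header. The list named for both methods gives positions only and is attached to the antibody input. Pooling of libraries and the input used as control are not given in the sources used here.

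Peaks were chained and compared with Python 3.11.15, NumPy 2.4.6, pandas 2.3.3 and SciPy 1.17.1. The chain and overlap counts were checked against bedtools 2.31.1, and the code was tested on simulated data with planted chains. Starts are counted from 1. Clusters on X and Y are outside the rule. The clusters, tests and lists were chosen with earlier results of these data known. The clusters named are the 10 with the most peaks, the 5 widest, the 5 with the highest summed score, the 10 largest in which every peak overlapped a streptavidin peak and the 5 strongest with no overlap, ties going to the higher summed score. The bins of gap and span, the neighbour comparison, the distances to streptavidin peaks and the flanks of single peaks were added after seeing the data. A plan to name genes and search motifs was not carried out, as no mm9 genome or annotation was used here.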

Additional observations from a re-analysis of the deposited data

How the results depend on the processing

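A largest gap of 2000 bases gave 268 clusters with 876 peaks, and one of 10000 bases 653 with 2295. Joining antibody peaks within 500 bases gave 157 with 507, and the higher-scoring 50% of the antibody list 92 with 292 (median score 310). The share of cluster peaks that overlapped a streptavidin peak was 37.8% with a gap of 2000 bases, 47.9% in the higher-scoring 50%, 30.6% where the overlap had to reach 50% of the shorter peak, 30.4% with centres within 200 bases, 52.9% with centres within 1000 bases and 22.3% with the streptavidin list limited to its strongest peaks, as many as the antibody list holds. The share of the other autosomal antibody peaks was 20.9% with a gap of 2000 bases and 21.7% after joining, where cluster peaks had 32.15%. In the order of the last 5 settings above, the share of the other peaks was 30.0%, 18.6%, 19.1%, 27.8% and 12.1%. The share of clusters with an overlapping peak was 82.6% in the higher-scoring 50% and 51.6% with the shortened streptavidin list. The gap, the joining and the 2 shortened lists change by construction which peaks enter, while the 3 other definitions of overlap keep the peaks and change only the criterion. The cause of the differences was not tested beyond that. In each of the 9 alternatives run, cluster peaks overlapped more often than the other peaks. With centres within 1000 bases this is partly built in. That setting also counts streptavidin peaks on neighbouring antibody peaks, which the rule places nearby. These other peaks are pairs and single peaks in 1 group, with 3138 peaks in pairs and 11747 single peaks under the main rule. Under that rule the share was 34.5% for cluster peaks, 30.3% for pairs and 18.1% for single peaks. Pairs were not set apart in the alternatives, so whether cluster peaks also exceed pairs there was not tested. With X and Y included there were 417 clusters and no value moved beyond its interval. The alternatives on motifs were not run without an mm9 genome. No replicate could be left out and no paired analysis was possible because each group has 1 library. Read depth is unknown, so peaks just under the authors' threshold cannot be counted.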
